A study of Mus musculus with 4 samples.

Results

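Lipid-associated macrophages are macrophages of obese adipose tissue (AT) that gather around dying fat cells and take up the lipid they release. They are known for the surface receptor TREM2, and 10 genes commonly listed for that state were described here: Trem2, Tyrobp, Gpnmb, Cd9, Spp1, Lgals3, Itgax, Cst7, Fabp5 and Cd36. The members were found by their gene names, and all 10 were among the 35869 genes of the tables. All 10 passed the filter on low values that left 16849 genes to test. RNA-seq had been performed on CD45+ cells, the leukocyte fraction, isolated with magnetic beads from the stromal vascular fraction of epididymal white AT. The cells came from male wild-type C57BL/6 mice that were given either a high-fat diet (HFD) or a normal diet (ND) for 12 weeks from 8 weeks of age. No allele or other agent distinguished the groups, and each diet had 2 samples. The sources used here do not say how many mice went into a sample, so the spread between samples may be technical.

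TREM2 is an immunoglobulin-type receptor that binds lipids and lipoproteins such as those carrying APOE. It has no signalling motif of its own and signals through the adaptor DAP12, the product of Tyrobp, which recruits the kinase SYK once it is phosphorylated by SRC-family kinases. The sheddases ADAM10 and ADAM17 can cut the receptor from the cell surface.

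A total of 8 of the 10 members were expressed at a higher level after HFD, Cst7 was expressed at a lower level, and Tyrobp differed by less than the fold required. Gpnmb changed by 69.4-fold, Spp1 by 15.3-fold and Trem2 by 8.70-fold, whereas Fabp5, Cd9, Itgax, Lgals3 and Cd36 rose by 2.31-fold to 5.36-fold. A gene was called when its adjusted p in limma was under 0.05 and its change was at least 1.5-fold. Over all genes tested, 8.08% were called higher and 10.3% lower after HFD. The median difference between the diets was 2.36 on the log2(TPM + 1) scale for the members and 0.056 for all genes tested. TPM values are levels corrected for transcript length and library total, which allows levels of different genes to be set side by side. The gene annotation behind those lengths is not given in the sources used here, which limits such comparisons between genes. In RNA from a mixed population, more cells of a type and more RNA per cell cannot be told apart. The calls rested on both ND samples: without either of them, limma called 0 genes in all, with 8 members and 3471 or 3686 genes still at an unadjusted p under 0.05. The differences themselves moved little when any 1 sample was left out: they stayed at 6.06 to 6.17 on the log2 scale for Gpnmb, 3.05 to 3.19 for Trem2 and 2.07 to 2.11 for Lgals3, with the widest range, -2.41 to -1.58, for Cst7.

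The CD45+ fraction was checked against marker lists. Ptprc, which encodes CD45, was at 53.7 to 59.4 TPM in the 4 samples. Of 12 macrophage markers, Adgre1 and Cd68 were higher after HFD, C1qa was lower, and 9 were not called. All 7 markers of resident macrophages were lower. So were the 5 markers tested of each of mast cells, B cells, neutrophils, T cells and NK cells, and 3 of 5 monocyte markers, whereas 5 of 6 proliferation markers were higher. Of the 25 tested markers of those 5 cell types, 4 (Cxcr2, Pax5, Klre1 and Ms4a2) passed the filter on low values only through the ND samples. They were higher there and could only be tested as lower. The monocyte marker Vcan ran the other way and passed the filter only through the HFD samples. It was at 0.9 TPM in each ND sample against 2.5 and 6.0 TPM after HFD, and was not called in limma (adjusted p = 0.0884). From ND to HFD, the mean summed level went from 1546.2 to 421.9 TPM for mast cell markers, from 114.8 to 25.1 TPM for B cell markers, from 203.6 to 81.7 TPM for monocyte markers and from 84.0 to 184.7 TPM for proliferation markers. Markers of cells outside the CD45+ gate were present too, with summed fibroblast markers at 522.2 and 561.1 TPM in ND against 2836.6 and 5686.2 TPM after HFD. Summed spermatid markers were at 7107.0 TPM in HFD replicate 1 against 1883.5 to 2156.3 TPM in the other samples. The part of these shifts in the members' changes was not tested.

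**Figure D1:**
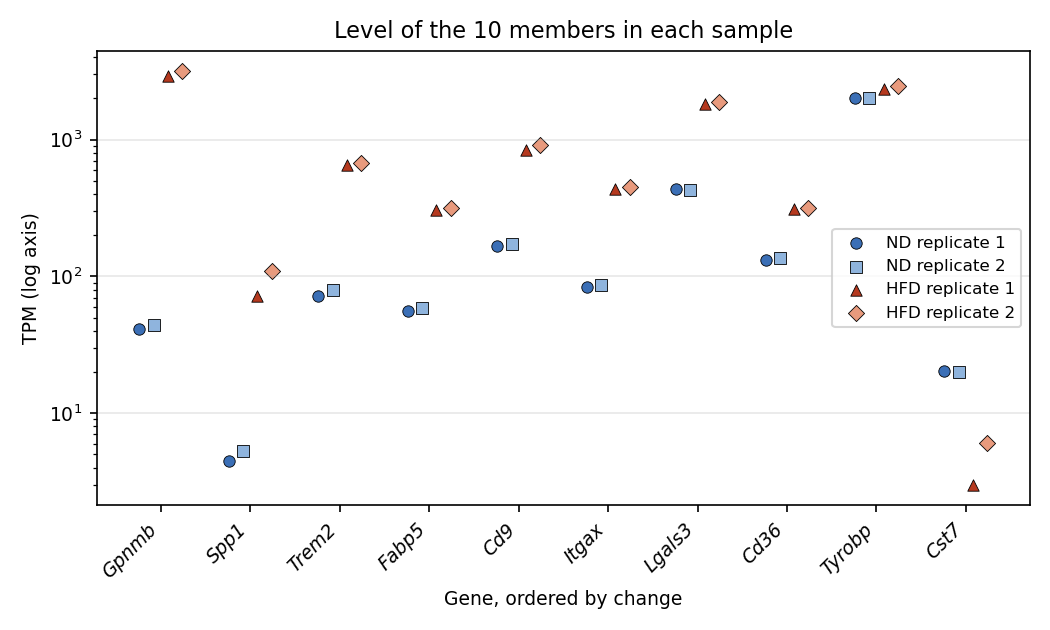
Level of each of the 10 members in every sample, as TPM on a log axis, with circles and squares for the ND samples and triangles and diamonds for the HFD samples. Both HFD points lay above both ND points for 9 members and below them for Cst7, and the widest gap between the HFD replicates was that of Cst7.

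Promoter sequences are given for the receptor, for Itgax, which shared a motif with it, for the member with the largest rise and for the member that fell. They are the 250 bases before the start site on the gene's strand, from RefSeq on GRCm38.p6, in which 8 of the 10 members were matched by symbol and Spp1 had 2 start sites. Capitals mark motif letters on either strand.
Trem2, chr17:48346151-48346400, plus strand: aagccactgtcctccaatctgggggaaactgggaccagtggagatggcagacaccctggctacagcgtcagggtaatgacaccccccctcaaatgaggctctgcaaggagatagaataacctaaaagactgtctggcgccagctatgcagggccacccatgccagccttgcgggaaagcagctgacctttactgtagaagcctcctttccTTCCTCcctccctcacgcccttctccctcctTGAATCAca
Itgax, chr7:128129300-128129549, plus strand: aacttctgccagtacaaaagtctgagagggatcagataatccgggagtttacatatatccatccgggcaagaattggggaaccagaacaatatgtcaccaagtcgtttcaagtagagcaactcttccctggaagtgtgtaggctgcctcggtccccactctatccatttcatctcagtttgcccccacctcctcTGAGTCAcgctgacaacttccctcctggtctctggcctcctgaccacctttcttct
Gpnmb, chr6:49036268-49036517, plus strand: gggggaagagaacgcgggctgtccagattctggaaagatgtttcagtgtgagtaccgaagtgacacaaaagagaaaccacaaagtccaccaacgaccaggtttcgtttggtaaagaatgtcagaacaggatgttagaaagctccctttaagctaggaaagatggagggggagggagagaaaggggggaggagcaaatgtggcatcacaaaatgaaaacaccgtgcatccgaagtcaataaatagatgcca
Cst7, chr2:150570165-150570414, plus strand: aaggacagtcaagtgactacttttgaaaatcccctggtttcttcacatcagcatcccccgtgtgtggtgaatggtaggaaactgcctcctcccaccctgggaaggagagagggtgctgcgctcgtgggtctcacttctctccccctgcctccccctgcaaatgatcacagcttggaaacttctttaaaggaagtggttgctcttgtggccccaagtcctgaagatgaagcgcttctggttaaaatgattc

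Each motif was searched on both strands. The AP-1 letters TGANTCA were found in the windows of Trem2, 9 bases before the start site, and Itgax, 56 bases before it, and in 6.75% of 32851 promoter windows of that length. The PU.1 letters GAGGAA were found in the windows of Trem2, 40 bases before the start site on the other strand, and Spp1, 113 bases before it, and in 23.3% of all windows. PU.1 is a transcription factor of the macrophage lineage. The motifs did not overlap in the Trem2 window. The letters CATGTG, of the E-box type bound by the MiT/TFE factors, were found in the Cd9 window and in 12.3% of all windows. No member window held CACGTG, TTGCNNCAA or the DR1 repeat of nuclear receptors, which were in 6.02%, 1.74% and 0.033% of all windows. These matches describe letters in a window and are not evidence of binding.

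Trem2, which encodes the receptor, lies on chromosome 17 from 48346401 to 48354147 on the plus strand of mm10, with 5 exon blocks. It was expressed at 71.8 and 79.0 TPM in the ND samples and at 652.9 and 672.9 TPM in the HFD samples. Both HFD values lay far above both ND values, and the replicates of each diet stood close together. The difference was 3.12 ± 0.06 on the log2(TPM + 1) scale (SE, 2 samples against 2, adjusted p = 0.00378), which ranked 50 among the 16849 genes. The mean level rose from 75.4 ± 5.09 to 662.9 ± 14.1 TPM (SD, n = 2).

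Tyrobp, which encodes the adaptor DAP12, lies on chromosome 7 from 30413760 to 30417585 on the plus strand. It was expressed at 2026.7 and 2022.1 TPM in ND and at 2335.8 and 2450.8 TPM in HFD. The adaptor was already the most abundant member in ND, and its HFD values lay only slightly above the ND values. The difference was 0.24 ± 0.04 on the log2 scale, or 1.18-fold (adjusted p = 0.0305), and was not called because it was under 1.5-fold. Over the alternatives that kept both samples of each diet, its difference stayed between 0.18 and 0.33 on the log2 scale.

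The receptor and its adaptor therefore differed in ratio between the diets. Trem2 was at 3.54 and 3.91 TPM per 100 TPM of Tyrobp in ND and at 27.95 and 27.5 in HFD. Hcst, which encodes DAP10, the adaptor whose gene lies 126 bases from Tyrobp on the other strand, went the other way. It was expressed at 114.5 and 109.3 TPM in ND and at 52.2 and 50.2 TPM in HFD, and fell by 1.11 ± 0.05 on the log2 scale (adjusted p = 0.00536).

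Gpnmb encodes a type I membrane glycoprotein of the endosomal and lysosomal system. The gene lies on chromosome 6 from 49036546 to 49070929 on the plus strand. Gpnmb was expressed at 41.5 and 44.0 TPM in ND and at 2917.9 and 3150.2 TPM in HFD. The rise of 6.12 ± 0.06 on the log2 scale (adjusted p = 0.00378) was the largest of all 16849 genes tested. Gpnmb went from rank 8 of the 10 members in ND to rank 1 in HFD. It made up 1.37% and 1.44% of the members' summed TPM in ND and 30.1% and 30.7% in HFD. Its relative Pmel, the pigment cell matrix protein, was at 4.3 and 3.8 TPM in ND against 3.2 and 2.0 TPM after HFD and was not called (adjusted p = 0.178).

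Cd9 encodes a tetraspanin, a membrane organiser of immune and other cells. The gene lies on chromosome 6 from 125460266 to 125494791 on the minus strand. Levels of Cd9 were 167.3 and 171.1 TPM in ND against 843.3 and 910.1 TPM after HFD, a difference of 2.37 ± 0.05 on the log2 scale (adjusted p = 0.00378). Gm26728, on the opposite strand, shares 218 exon bases with Cd9 and was at most at 0.1 TPM in any sample. Other tetraspanins did not move as one: of 6 tested, Cd63 and Cd151 were higher, Cd81, Cd82 and Cd37 were lower, and Cd53 was not called. Cd81, the B cell co-receptor tetraspanin, fell by 1.15 ± 0.06 on the log2 scale (adjusted p = 0.00605). Cd9 was at 19.5 and 19.7 TPM per 100 TPM of Cd81 in ND and at 228 and 223 in HFD, so that their order was inverted. Cd37 was just past the threshold at -0.59, and below it with a pseudocount of 5 and relative to macrophage genes.

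Itgax encodes CD11c, the alpha chain of a beta2 integrin, which is used as a marker both of dendritic cells and of AT macrophages in obesity. Its locus is on chromosome 7 from 128129547 to 128150657 on the plus strand. Itgax was expressed at 84.1 and 86.4 TPM in ND and at 438.8 and 446.8 TPM in HFD, and it rose by 2.36 ± 0.04 on the log2 scale (adjusted p = 0.00378). The 7 dendritic cell markers summed to 442.0 and 471.2 TPM in ND and to 96.4 and 116.4 TPM in HFD, and 3 of them were called lower, 1 of which (Siglech) passed the filter only through the ND samples, and 0 higher. Cd209a carried most of that sum in ND, at 367.2 and 393.0 TPM, and was at 65.0 and 58.0 TPM in HFD. Without it, the other 6 summed, after the values were seen, to 74.8 and 78.2 TPM in ND and to 31.4 and 58.4 TPM in HFD. Itgb2, the shared beta chain, rose by 0.76 ± 0.05 (adjusted p = 0.0079), and Itgal, the alpha chain of lymphocyte LFA-1, fell by 1.73 ± 0.09 (adjusted p = 0.00611). Itgam and Itgad were not called.

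Cd36 encodes a scavenger receptor that takes up fatty acids and oxidised lipoproteins, and it lies on chromosome 5 from 17781690 to 17888801 on the minus strand. Cd36 was expressed at 131.3 and 137.1 TPM in ND and at 308.4 and 314.0 TPM in HFD. The difference of 1.21 ± 0.04 on the log2 scale (adjusted p = 0.00449) was the smallest of the 8 members that rose. Endothelial cells and adipocytes also express this gene. Their marker sums were at 214.2 and 220.4 TPM in ND against 256.3 and 261.2 TPM after HFD for endothelial cells, with 0 of 6 markers called, and for adipocytes at a mean of 49.6 TPM in ND against 21.6 and 14.8 TPM after HFD, with 1 of 6 markers, Lep, called higher and 2, Cfd and Retn, lower. Both of the latter passed the filter on low values only through the ND samples. Cfd, encoding adipsin, carried most of the adipocyte difference, and the other 5 markers summed, again after the values were seen, to 23.7 and 24.6 TPM in ND against 20.7 and 14.5 TPM after HFD. Of its family, Scarb1, the receptor for high-density lipoprotein, rose by 0.66 ± 0.07 (adjusted p = 0.015), and the lysosomal Scarb2 was not called (adjusted p = 0.0624). The Scarb1 call was lost under median-ratio scaling (adjusted p = 0.067) and, at 0.52 on the log2 scale, under quantile normalization.

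Fabp5, which encodes a cytosolic fatty acid carrier, lies on chromosome 3 from 10012548 to 10016607 on the plus strand. It was expressed at 55.4 and 59.2 TPM in ND and at 308.1 and 314.0 TPM in HFD, a rise of 2.42 ± 0.05 on the log2 scale (adjusted p = 0.00378). A near-identical copy, Fabp5l2, exists in the mouse genome, and the counting of reads that fit both is not given in the sources used here. Fabp4, the carrier shared by adipocytes and macrophages, was far more abundant, at 950.5 and 980.5 TPM in ND against 1212.0 and 1346.5 TPM after HFD, and did not reach 1.5-fold (0.40 ± 0.07 on the log2 scale, adjusted p = 0.0323). Fabp7, the brain-type carrier, rose from 2.0 and 2.6 TPM to 24.8 and 21.0 TPM (adjusted p = 0.00598). Fabp3 was not called.

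Spp1 encodes osteopontin, a secreted adhesive phosphoprotein. The gene lies on chromosome 5 from 104435118 to 104441050 on the plus strand, and 309 of its exon bases are shared with the unconfirmed gene model Gm42793 on the same strand. Spp1 was expressed at 4.5 and 5.3 TPM in ND and at 72.3 and 109.4 TPM in HFD. It was the least abundant member in ND, and its HFD replicates stood 0.59 apart on the log2 scale. The difference of 3.93 ± 0.25 (adjusted p = 0.00715) was still larger than that spread, and it was 3.25 with a pseudocount of 5 in place of 1. Summed fibroblast markers, given above, stood in the same order in the HFD replicates, and their part in the Spp1 level was not tested. The other 4 genes of the SIBLING family, the mineral-binding phosphoproteins to which osteopontin belongs, were too low to test.

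Lgals3 encodes galectin-3, a lectin that binds galactosides and is abundant in activated macrophages, and it lies on chromosome 14 from 47367751 to 47386160 on the plus strand. Lgals3 was expressed at 434.7 and 428.9 TPM in ND and at 1819.8 and 1871.3 TPM in HFD, a rise of 2.09 ± 0.03 on the log2 scale (adjusted p = 0.00378). Lgals1, encoding galectin-1, rose less, by 0.79 ± 0.05 (adjusted p = 0.00759), and Lgals3 went from 48.5 and 48.7 to 123 and 117 TPM per 100 TPM of Lgals1. The other 4 galectins tested, Lgals4, Lgals7, Lgals8 and Lgals9, were not called. Under median-ratio scaling Lgals1 was not called (adjusted p = 0.0515), and Lgals9, at -0.57, was called lower there and under 2 other scalings.

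Cst7, the member that fell, encodes cystatin F, an inhibitor of lysosomal cysteine proteases that cytotoxic lymphocytes also express. The gene lies on chromosome 2 from 150570415 to 150578944 on the plus strand. Cst7 was expressed at 20.5 and 20.0 TPM in ND and at 3.0 and 6.1 TPM in HFD. Both HFD values were below both ND values, but they stood 0.83 apart on the log2 scale, the widest replicate difference among the members. It fell by 1.995 ± 0.326 on the log2 scale (adjusted p = 0.0311), or 3.99-fold, and the call was lost without the filter on low values (adjusted p = 0.0676).

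Markers of lymphocytes moved beside Cst7. The 5 NK cell markers summed to 167.1 and 172.1 TPM in ND and to 35.2 and 28.0 TPM in HFD, and the T cell markers to 120.5 and 129.0 TPM in ND and to 14.4 and 27.9 TPM in HFD. All 5 NK cell markers and all 5 T cell markers tested were called lower. Their part in the Cst7 level was not tested. Other cystatins differed from it: Cstb, the cytosolic stefin B, rose by 1.39 ± 0.04 (adjusted p = 0.00415), and Cst3, the secreted cystatin C, was not called at a difference of -0.44 ± 0.07.

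**Figure D2:**
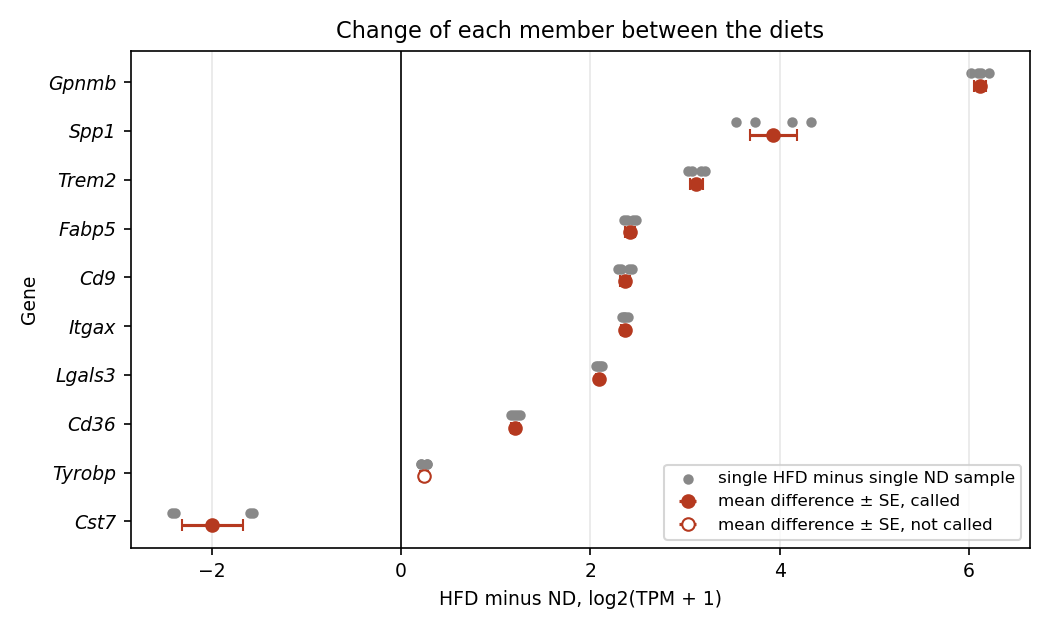
Difference between HFD and ND of each member on the log2(TPM + 1) scale. Red points with bars give the mean difference and its standard error in limma, open where it was not called, and grey points give the 4 differences between a single HFD and a single ND sample, which shared a sign for every member.

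The order of change was stable at its ends. In all 4 pairings of an HFD with an ND sample, Gpnmb, Spp1 and Trem2 led in that order, and Lgals3, Cd36, Tyrobp and Cst7 closed it. Fabp5, Cd9 and Itgax, between them, changed places from pairing to pairing, and their differences lay within 2.30 and 2.48 on the log2 scale. These 3 genes had the closest profiles of any members: the root mean square distance of their centred log2 values over the 4 samples was 0.03 for Cd9 and Itgax, 0.035 for Itgax and Fabp5 and 0.046 for Cd9 and Fabp5.

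The order of levels differed between the diets. In ND it ran from Tyrobp through Lgals3, Cd9, Cd36, Itgax, Trem2, Fabp5, Gpnmb and Cst7 to Spp1, and no neighbours overlapped in their replicate values. In HFD it ran from Gpnmb through Tyrobp, Lgals3, Cd9, Trem2, Itgax, Cd36, Fabp5 and Spp1 to Cst7, and only Cd36 and Fabp5 overlapped. Together the 10 members made up 0.304% and 0.305% of all TPM in ND and 0.97% and 1.02% in HFD. Without Gpnmb, the other 9 members summed to 2996.3 and 3009.1 TPM in ND and to 6782.4 and 7095.4 TPM in HFD, so the rise in the sum did not rest on Gpnmb alone.

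The median absolute log2 difference between replicates was 0.05 for the members in ND and 0.056 in HFD. For all genes tested it was 0.0875 in ND and 0.158 in HFD. For the 7307 genes at least as abundant as the lowest member, it was 0.0691 in ND and 0.114 in HFD. That set was not otherwise matched to the members on level. Cst7 and Spp1 were the members farthest apart between the HFD replicates. Values of the 2 diets overlapped for 0 of the 10 members. Over all genes tested, both HFD values lay above both ND values for 34.1% and below them for 32.8%. With 4 samples, the smallest p an exact two-sided permutation test allows is 0.333, and every member had that value.

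**Figure D3:**
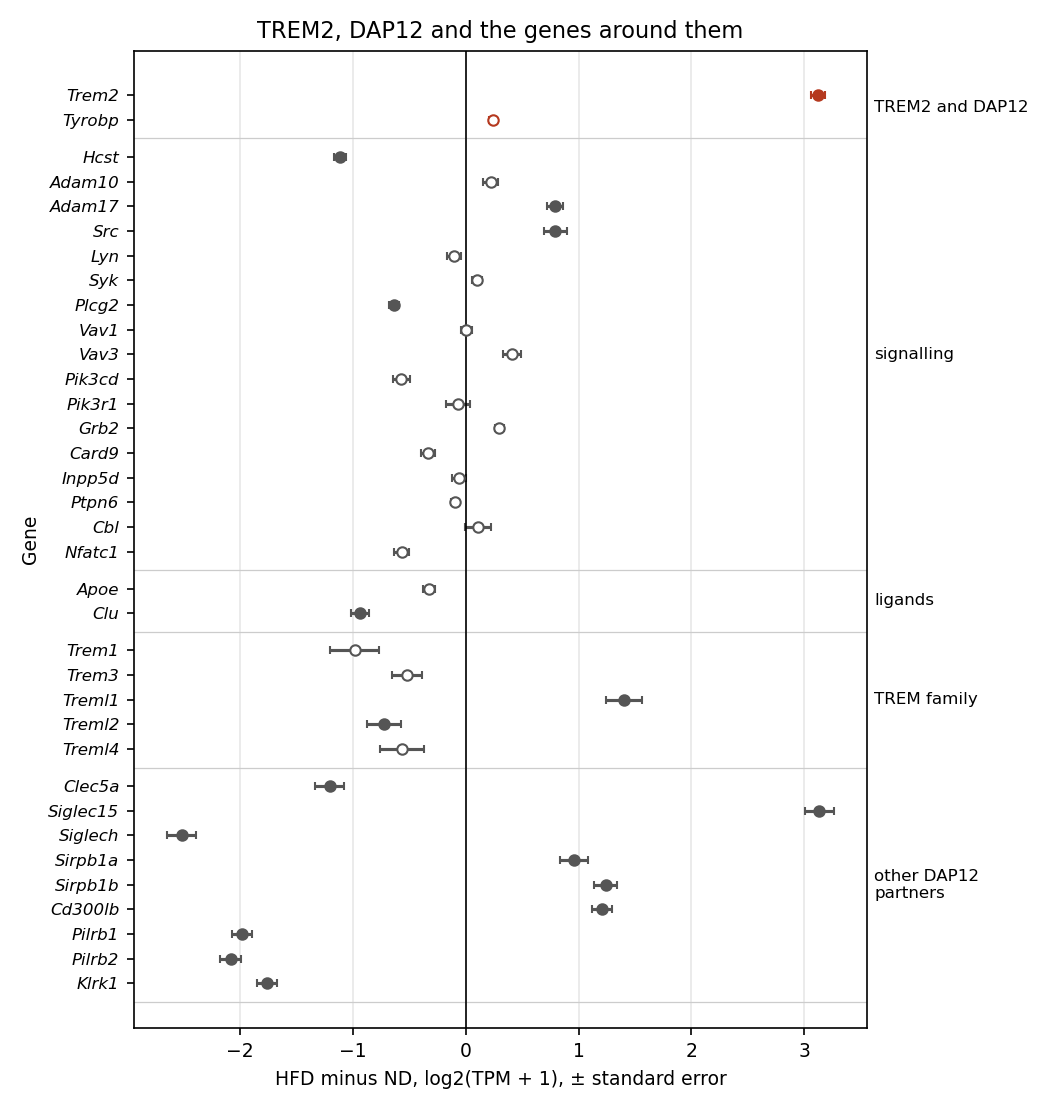
Difference between HFD and ND on the log2(TPM + 1) scale, with its standard error in limma, for Trem2 and Tyrobp (red) and for genes of TREM2 signalling, its ligands, the TREM family and other receptors that pair with DAP12 (grey). Filled points were called, and open points were not. Most signalling genes lay near 0, and the other DAP12 partners lay on both sides of it.

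Of 17 genes of TREM2 signalling, 2 were called higher, 2 lower and 13 were not called, with a median difference of -0.06 on the log2 scale. Over all genes tested, 18.4% were called in either direction, so 4 of 17 is near that background. Adam17, which encodes a sheddase, rose by 0.79 ± 0.07 (adjusted p = 0.0121), from 20.1 and 21.7 TPM to 35.7 and 38.1 TPM. The other sheddase gene, Adam10, was not called at 69.8 and 76.1 TPM in ND against 85.9 and 84.1 TPM after HFD. The low-level kinase gene Src rose from 1.0 and 1.1 to 2.5 and 2.6 TPM (adjusted p = 0.0198), and was below 1.5-fold with a pseudocount of 5. Plcg2, encoding a phospholipase C downstream of SYK, fell by 0.64 ± 0.05 (adjusted p = 0.0087), and Hcst fell as given above. Relative to macrophage genes the fall of Plcg2 was below 1.5-fold, at -0.55. Pik3cd and Nfatc1, encoding a kinase subunit and a transcription factor, were not called at -0.57 each and were called lower under 3 of the other scalings. Syk itself was at 71.5 and 74.0 TPM in ND against 78.0 and 77.8 TPM after HFD and was not called (adjusted p = 0.203).

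Of the TREM2 ligands, Apoe remained abundant, at 1826.4 and 1698.5 TPM in ND against 1379.0 and 1434.5 TPM after HFD, and was not called. Clu, which encodes the lipoprotein clusterin, fell by 0.94 ± 0.08 (adjusted p = 0.0113).

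Other TREM genes were expressed at a low level. Treml1, which follows Trem2 on the same strand after 5768 bases, rose from 0.2 and 0.5 TPM to 2.5 and 2.6 TPM (adjusted p = 0.0164). Treml2 was at 1.3 and 1.0 TPM in ND against 0.2 and 0.4 TPM after HFD, and its call stood at an adjusted p of 0.0498. Its call was lost without HFD replicate 1 (adjusted p = 0.0956), without HFD replicate 2 (adjusted p = 0.0621) and under other settings, with an adjusted p of up to 0.17 under quantile normalization. Treml1 was below 1.5-fold with a pseudocount of 5, at 0.50 on the log2 scale, and without either HFD replicate it did not pass the filter on low values and was not tested. Treml1 had passed that filter only through the HFD samples and Treml2 only through the ND samples, where each was the higher. Trem1, an amplifier of inflammatory signals, was not called, at 6.2 and 6.0 TPM in ND against 2.0 and 3.3 TPM after HFD (adjusted p = 0.0543). It was called lower without HFD replicate 1 (adjusted p = 0.0369), without HFD replicate 2 (adjusted p = 0.0267) and after rescaling without the 50 most abundant genes (adjusted p = 0.0468).

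All 9 other DAP12 partner receptors that were tested were called, 4 of them higher and 5 lower. Over all genes tested, 8.08% were called higher and 10.3% lower. Siglec15, a sialic acid receptor of osteoclasts, rose from 0.2 and 0.1 TPM to 9.8 and 8.4 TPM, a difference of 3.13 ± 0.13 (adjusted p = 0.005). It passed the filter on low values only through the HFD samples and was not tested when either of them was left out. Cd300lb, an activating receptor of myeloid cells, rose by 1.21 ± 0.09 (adjusted p = 0.00896), and Sirpb1a and Sirpb1b, activating relatives of the signal regulatory protein SIRP alpha, also rose, although the call of Sirpb1a was lost under quantile normalization (adjusted p = 0.0519). Siglech, a receptor of plasmacytoid dendritic cells, fell by 2.52 ± 0.13 (adjusted p = 0.00576) and passed the filter only through the ND samples, and Klrk1, the NKG2D receptor of NK and T cells, fell by 1.76 ± 0.09 (adjusted p = 0.00561). Clec5a, Pilrb1 and Pilrb2 were lower too. The Pilrb and Sirpb1 genes are close copies of each other, and reads shared between such copies make their single values uncertain. These receptors and the other TREM genes, Trem2 left out, summed to 141.4 and 147.3 TPM in ND and to 171.2 and 157.9 TPM in HFD.

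**Figure D4:**
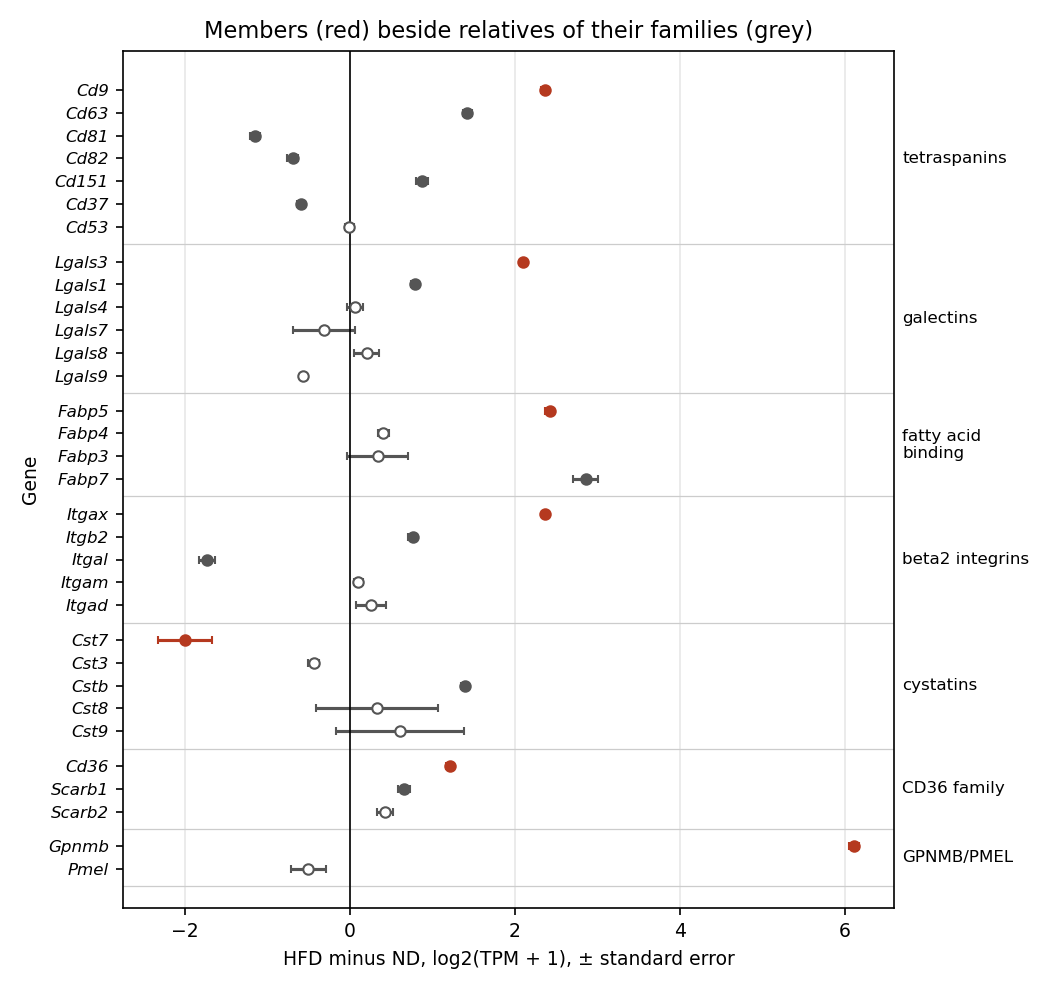
Difference between HFD and ND on the log2(TPM + 1) scale, with its standard error in limma, for 7 members (red) beside relatives of the same family (grey). Filled points were called. Among the members that rose, only Fabp5 was exceeded by a relative, Fabp7, and in the tetraspanin, galectin, integrin and cystatin families relatives lay on both sides of 0.

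The wider list of lipid-associated macrophage genes moved in the direction of most members. Of its 22 other genes, 18 were called higher and 0 lower, with a median difference of 1.18 on the log2 scale. Over all genes tested, 8.08% were called higher and 10.3% lower, with a median of 0.056. The list was drawn up with earlier results of these samples known and is not independent evidence of its direction. Its 4 most abundant genes were called higher. Ctsd, encoding the lysosomal protease cathepsin D, rose from 1772.2 and 1778.0 TPM to 5664.6 and 6344.6 TPM, and Lpl, encoding lipoprotein lipase, from 684.1 and 714.8 TPM to 2998.8 and 3008.2 TPM. Ctsb and Ctsz, encoding cathepsins B and Z, rose by 0.97 ± 0.04 and 1.04 ± 0.03. The 4 genes that were not called, named after their values were seen, were Fabp4, Csf1, Igf1 and Npc2.

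**Figure D5:**
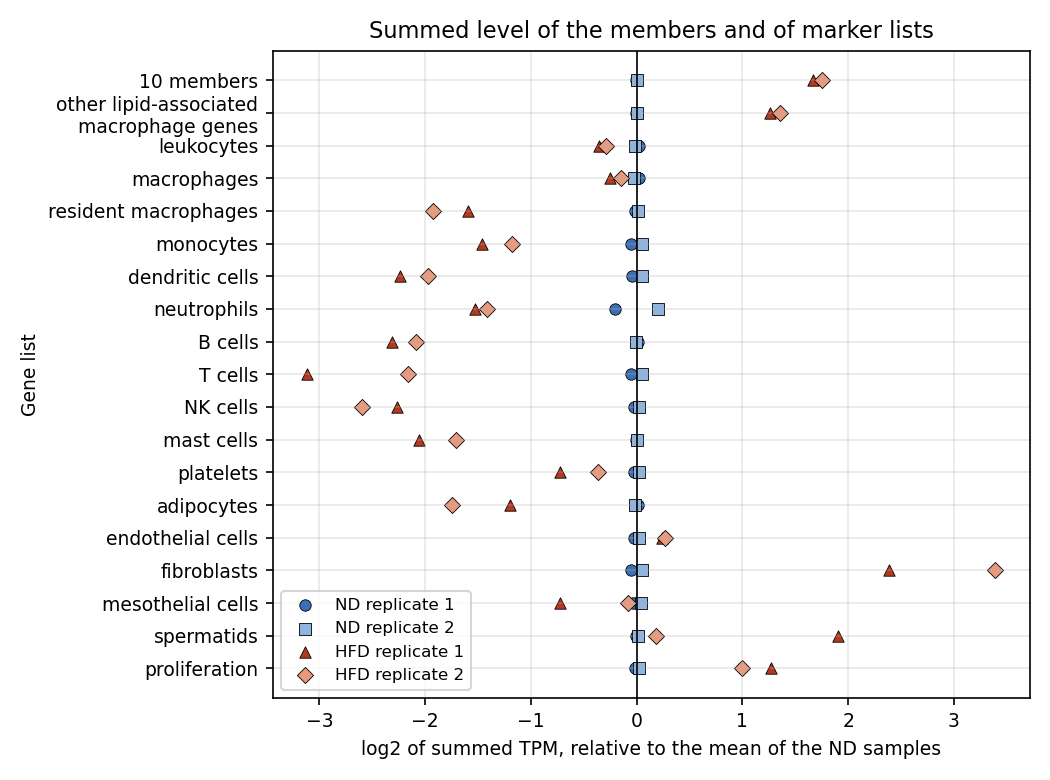
Summed TPM of the 10 members, of the other lipid-associated macrophage genes and of each marker list in every sample, as log2 relative to the mean of the ND samples. The first 2 lists lay above 0 in both HFD samples while the macrophage and leukocyte lists lay slightly below it, and the fibroblast and spermatid lists differed most between the HFD replicates.

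Genes whose profile over the 4 samples was most like that of Trem2 were found by the root mean square distance of centred log2(TPM + 1) values. The nearest 5 outside the members were Igf2r (0.0105), the mannose 6-phosphate receptor that sorts lysosomal enzymes, Ttyh2 (0.0545), Mir3074-1 (0.0672), Syngr1 (0.0888) and the endosomal sensor Tlr13 (0.09). Igf2r was expressed at 26.3 and 29.4 TPM in ND and at 249.2 and 255.0 TPM in HFD. With 4 samples in 2 diets, the measure mostly compares the size of the diet difference.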

How the data were processed

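Gene-level TPM tables of 4 CD45+ cell samples from epididymal AT, 2 ND and 2 HFD, were used, and groups were taken from the sample labels. According to the study's methods and processing notes, the authors prepared stranded mRNA libraries, trimmed reads with cutadapt (v1.9.1) through Trim Galore (v0.4.2), aligned them to mm10 with STAR (v2.6.1e), removed duplicates, counted with featureCounts (v1.6.2) and deposited TPM rounded to a single decimal. The gene annotation and strand setting are not given in the sources used here. Each table summed to between 999973 and 999985 TPM. From the steps of microRNA genes at RefSeq lengths, and with GENCODE exon lengths for all genes, depth was estimated at 37500000 to 46800000 reads. Because TPM are not counts, log2(TPM + 1) was tested with limma (v3.58.1, R v4.3.3) using a variance trend, on genes that reached a TPM of 1 in 2 or more samples, with Benjamini-Hochberg adjustment over all 16849 genes. The fit was tested on simulated data, and a gene that was not called is not thereby shown to be unchanged. Fold changes on this scale understate changes of low genes. Gene positions are those of GENCODE on mm10, and overlapping genes and close copies were looked up there.

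All 10 members were named. Any genes of the signalling, ligand, TREM, DAP12 partner and family lists could be named too. So could the 4 most abundant genes of other lists, genes called against their list's majority, and the 5 nearest to Trem2. Not all of these were named. Ptprc, named because it encodes CD45, and Adgre1, Cd68, Retn and the markers that passed the filter through 1 diet are outside that rule and were named after their values were seen. The members and lists were chosen with earlier results of these data known. Alternatives were other pseudocounts, filters, scalings, variance settings and fold thresholds, a replicate block and leaving out each sample.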

Additional observations from a re-analysis of the deposited data

How the results depend on the processing

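All 140 differences of the 10 members, 14 alternatives for each, kept their direction, and 120 kept their side of the threshold. The other 20 lost a call: 18 without an ND replicate, where the lone ND sample was assumed to vary like the HFD pair, and 2 of Cst7, without a filter (adjusted p = 0.0676) and with the replicate block (adjusted p = 0.0724). The count of members called higher ran from 0 to 8 when a sample was left out and was 8 under every other alternative. The count called lower ran from 0 to 1 when a sample was left out, was 0 without a filter on low values and 0 with the replicate block, and was 1 under the others. Over all genes, leaving out a sample gave 0 to 2554 genes called higher and 0 to 1774 called lower, against 1361 and 1735 in the full data. The replicate block gave 407 higher and 405 lower. The deviations of same-numbered samples correlated at -0.015 over the genes tested. With 2 samples per diet, this value cannot show whether same-numbered samples shared a batch or other origin. A threshold of 2-fold gave 706 higher and 898 lower. A pseudocount of 5 left 1072 genes lower, and a mean TPM of at least 5 left 1108. The share of calls that were higher was 44.0% in the full data, 54.8% relative to macrophage genes and 61.2% without HFD replicate 2. Of 628 such values of other named genes, 522 kept their call, 87 lost one, 16 gained one and 3 reversed, all near 0: Syk at -0.0266 and Itgam at -0.0404 under quantile normalization and Inpp5d at 0.03 relative to macrophage genes. Where a call changed, the cause was not tested. Over all genes, 3018 were called without HFD replicate 1 and 4170 without HFD replicate 2, against 0 without either ND sample and 3096 in the full data. Rounding of TPM to 1 decimal limits genes at a low level such as Treml1 and Treml2.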
